A study of Mus musculus with 9 samples.

Results

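Pericytes and hepatic stellate cells are followed here through 10 genes, taken by symbol from an expression table in FPKM (mapped fragments scaled to transcript length and library size) with 22053 rows of protein-coding genes. All 10 had a row with an accepted estimate in every library: Acta2, Tagln, Des, Pdgfra, Pdgfrb, Cspg4, Rgs5, Hgf, Colec11 and Lrat. The 9 mouse libraries fall into 3 groups of 3. N134 tumours 1, 2 and 3 grew under the skin from the N134 line, a mouse pancreatic neuroendocrine tumour line, and N134-RHAMMB tumours 1, 2 and 4 grew under the skin from the N134-RHAMMB line, named for RHAMMB, which is a splice form of the hyaluronan receptor RHAMM. Liver metastases 1, 2 and 3 came from the N134-RHAMMB line, so none from the parental line was measured here. Hosts, injected subcutaneously or through a tail vein, were NOD.Cg-PrkdcscidIl2rgtm1Wjl/SzJ (NSG) mice, a strain without mature B, T and natural killer cells that all 3 groups share. The organ and the injection route of a sample cannot be told apart, tumour and host are both mouse, and no untumoured liver or skin was analysed here. Neither host age nor whether the lines are single clones is stated in the sources used here. The labels do not say that libraries of a group came from separate animals, so p-values reflect no more than the spread among these samples, possibly a technical one.

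Pericytes wrap small vessels. Endothelial cells recruit them with the growth factor PDGF-B, which acts on the receptor encoded by Pdgfrb, and they share a contractile apparatus with smooth muscle. Hepatic stellate cells are the pericytes of the liver sinusoid. At rest they store vitamin A as retinyl ester, and after injury or around tumours they can become contractile, matrix-producing myofibroblasts. Acta2 and Tagln mark the contractile state, while Lrat marks the vitamin A-storing one. No single gene of the 10 is limited to these cells, and in bulk tissue fewer cells of a type and less RNA per cell cannot be told apart.

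Promoter windows of a few of these genes are printed to show which letters known from muscle gene promoters they hold. Each window holds 250 bases before and 50 after a RefSeq transcription start in GRCm38.p6, and 8 of the 10 genes were matched by symbol to a printable window. The first motif searched was the CArG box, the binding site of serum response factor, which drives smooth muscle genes. It was searched on both strands, exactly and with 1 other base allowed in its core of A and T bases. The second was AGATAA, a site read by factors of the GATA family, on both strands; matches of the pair did not overlap in these windows. Acta2 is shown with Myl9, whose values came closest to it, Des as a muscle filament gene, and Colec11 as the gene with the widest range. Capitals mark matches.
Acta2 (chr19:34255324-34255623, strand -): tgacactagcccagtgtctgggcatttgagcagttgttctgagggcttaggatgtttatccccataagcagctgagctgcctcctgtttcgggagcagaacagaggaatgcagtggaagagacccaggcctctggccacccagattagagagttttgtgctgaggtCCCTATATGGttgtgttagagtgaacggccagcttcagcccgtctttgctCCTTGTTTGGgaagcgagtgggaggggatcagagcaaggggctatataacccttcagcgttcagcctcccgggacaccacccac
Myl9 (chr2:156775214-156775513, strand +): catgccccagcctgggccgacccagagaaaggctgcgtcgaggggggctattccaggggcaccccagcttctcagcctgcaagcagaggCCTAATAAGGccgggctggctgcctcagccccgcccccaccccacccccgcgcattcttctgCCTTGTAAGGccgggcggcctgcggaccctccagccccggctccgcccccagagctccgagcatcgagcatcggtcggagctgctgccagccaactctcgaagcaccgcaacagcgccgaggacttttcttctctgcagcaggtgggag
Des (chr1:75360042-75360341, strand +): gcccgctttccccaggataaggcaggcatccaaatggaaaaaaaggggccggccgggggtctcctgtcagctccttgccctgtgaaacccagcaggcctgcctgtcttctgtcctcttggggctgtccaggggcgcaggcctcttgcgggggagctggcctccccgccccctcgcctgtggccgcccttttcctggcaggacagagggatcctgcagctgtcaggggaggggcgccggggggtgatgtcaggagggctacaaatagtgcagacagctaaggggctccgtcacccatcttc
Colec11 (chr12:28623281-28623580, strand -): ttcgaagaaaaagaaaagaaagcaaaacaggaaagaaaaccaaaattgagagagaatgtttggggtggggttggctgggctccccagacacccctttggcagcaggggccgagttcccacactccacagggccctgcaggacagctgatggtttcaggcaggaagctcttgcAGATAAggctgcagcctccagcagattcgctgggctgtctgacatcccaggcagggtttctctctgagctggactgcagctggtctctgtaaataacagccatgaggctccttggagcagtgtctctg
The Acta2 window held 2 CArG-like matches, each with 1 other base, which began 84 and 34 bases before the start. Myl9 held 1 CArG box with no other base, 161 bases before the start, and 1 with 1 other base. Of all 32851 windows of this length, 1.629% held a CArG box without another base and 9.984% with at most 1. Lrat also held a match with 1 other base, while Des, Pdgfra, Rgs5, Cspg4, Hgf and Colec11 held none in this window. Colec11 held 1 AGATAA on the printed strand and Rgs5 held 1 on the other strand, against 11.18% of all windows. Such matches are a description of letters and not of binding.

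**Figure D1:**
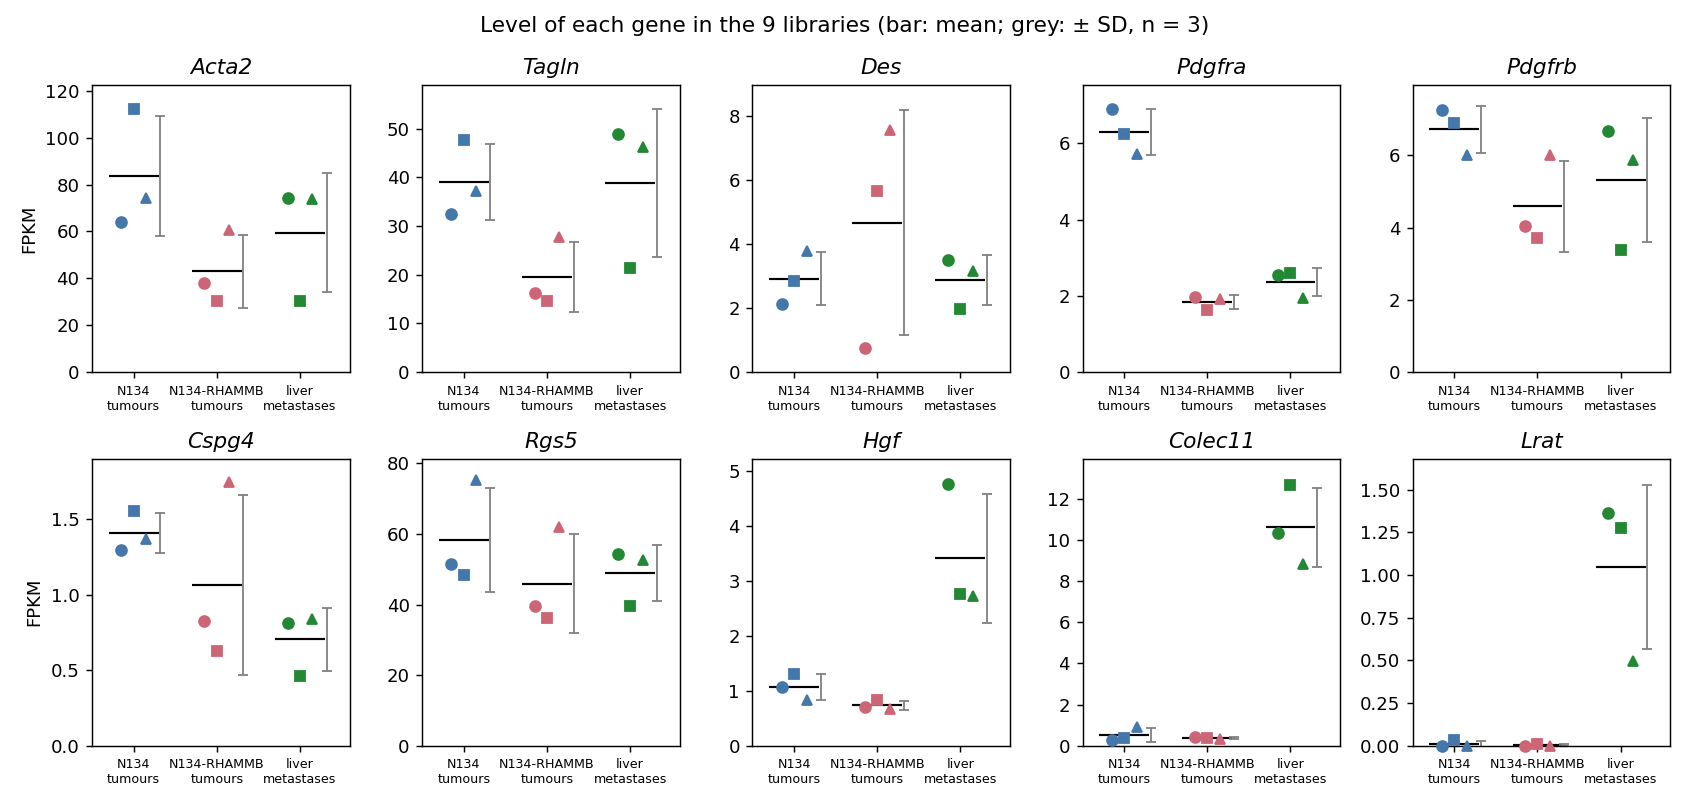
Level of each of the 10 genes in FPKM (y axis, linear from 0) in the 9 libraries, by group (x axis). Points are libraries (circle, replicate 1; square, replicate 2; triangle, replicate 3 or 4), black bars group means and grey bars ± SD (n = 3). Colec11, Hgf and Lrat stand higher in all 3 metastases than in all 6 subcutaneous tumours, and Pdgfra is highest in the 3 N134 tumours.

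The 10 genes spanned a wide range per length of transcript. Acta2 had the highest mean level over the 9 libraries at 62.0 FPKM, followed by Rgs5 and by Tagln at 32.5 FPKM. Pericyte transcripts were read in every library: Rgs5 never fell below 36.1 FPKM, Acta2 below 30.3 FPKM or Pdgfrb below 3.38 FPKM. Stellate cell markers gave a mixed picture. Lrat was listed at 0 in 4 of 6 subcutaneous tumours, and Tcf21, a stellate cell transcription factor, in all 6. Reln, Ecm1, Lhx2 and Cygb, from the same list of 19 further stellate cell genes, were read at 2.77 FPKM or more in every library. That list summed to 48.5 to 68.6 FPKM in the subcutaneous tumours, with 9 to 12 genes at 1 FPKM or more, and to 68.6 to 88.0 FPKM in metastases, with 14 or 15. Gfap, a rodent stellate cell marker, stayed at or below 0.0952 FPKM in all 9 libraries, against the stellate label. Of the 10 genes, 9 reached 1 FPKM in at least 3 libraries and were tested. Lrat reached it in 2 and was not.

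Other cell types moved with the groups. Summed over 12 hepatocyte markers, the level was 4192 to 4328 FPKM across metastases and 334 to 474 FPKM in the subcutaneous tumours, where none of the 12 was at 0. Ttr, transthyretin, at 282 to 427 FPKM, and the transcription factor gene Hnf4a, at 29.5 to 37.2 FPKM, made up most of those subcutaneous sums, while Alb and Hpx ran at 1.60 FPKM or less. In metastases Ttr held 480 to 574 FPKM and Hnf4a 29.3 to 41.4 FPKM. Summed fibroblast markers were 652 to 941 FPKM across N134 tumours, 317 to 529 FPKM across N134-RHAMMB tumours and 190 to 404 FPKM across metastases. Macrophage sums were 299 to 511, 225 to 281 and 161 to 247 FPKM in the same order, whereas endothelial sums overlapped at 132 to 165, 127 to 144 and 112 to 154 FPKM. Skeletal muscle markers summed to 182 and 224 FPKM across N134-RHAMMB tumours 2 and 4 and to 8.29 to 22.7 FPKM in the other 7 libraries, where Ckm was at 0.0582 FPKM or less. N134-RHAMMB tumour 2 also held the most keratinocyte RNA, 68.5 FPKM against at most 16.8 FPKM elsewhere. Estimated depth was 14.8 to 18.2 M (mega) fragments.

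**Figure D2:**
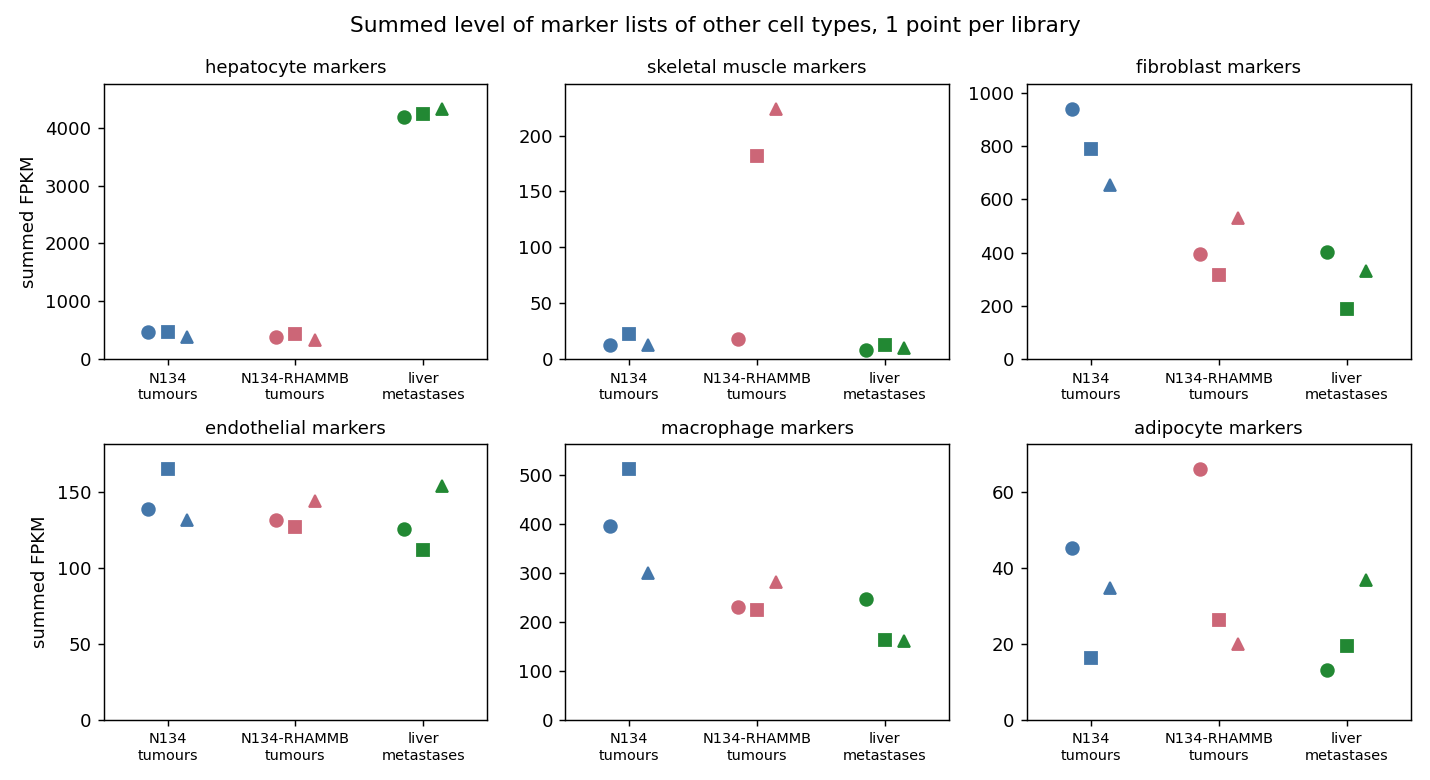
Summed FPKM (y axis, linear from 0) of 6 marker lists of other cell types in each library, by group (x axis), with circle, square and triangle for replicate 1, 2 and 3 or 4. Hepatocyte sums are high in the 3 metastases, muscle sums in N134-RHAMMB tumours 2 and 4, and endothelial sums overlap between groups.

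Comparing N134-RHAMMB with N134 tumours asks how the 10 genes differ between lines grown at 1 site. Pdgfra fell, and it was the only 1 of 9 tested genes to pass limma at an adjusted p below 0.05 (Benjamini-Hochberg over 12854 genes). Over all genes 0.117% were called lower, 0.0778% higher and 0.194% in either direction. Of the 9, 8 had a difference below 0 and 1 above, with a median of -0.35 on the log2(FPKM + 1) scale, which understates changes of low genes. The median of all genes tested was 0.01. Values of the groups did not overlap for Pdgfra, Acta2, Tagln and Hgf, all lower in N134-RHAMMB tumours, or 4 of 9, against 11.3% of all genes lower, 14% higher and 25.3% in either direction without overlap. An unadjusted p under 0.05 was found for 3 of 9 and for 12.8% of all genes.

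Moving from N134-RHAMMB tumours to metastases holds the line and changes the site. Colec11 and Hgf rose, 2 of 9 tested, against 5.04% of all genes called higher, 1.52% lower and 6.56% in either direction. With quantile normalization the calls over all genes split into 630 higher and 314 lower, in place of 648 and 195. Both were also the 2 of 9 whose groups did not overlap, against 8.8% of all genes higher, 11% lower and 19.8% in either direction. An unadjusted p under 0.05 was found for 3 of 9 and for 16.7% of all genes. None of the 9 was called lower. Their differences were above 0 for 7 and below 0 for 2, with a median of 0.24 beside -0.06 for all genes. Colec11 and Hgf entered the test only through their levels in metastases, since fewer than 3 subcutaneous libraries reached 1 FPKM, so the filter fixed these calls in part and nothing is read from the count over the 9.

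Between metastases and N134 tumours, which differ in both line and site, Colec11 and Hgf rose and Pdgfra fell. Calls over all genes came to 5.69% higher, 4.23% lower and 9.93% in either direction. Groups did not overlap for 4 of 9, Colec11 and Hgf higher and Pdgfra and Cspg4 lower, against 11.4% of all genes higher, 14.3% lower and 25.7% in either direction. An unadjusted p under 0.05 was found for 4 of 9 and for 21.4% of all genes. Here too Colec11 and Hgf entered the test only through their levels in metastases, so nothing is read from these counts over the 9. Both comparisons of metastases share the metastases, and each N134-RHAMMB value enters a pair of comparisons, so the values are given side by side. The remaining 6 tested genes, Acta2, Tagln, Des, Pdgfrb, Cspg4 and Rgs5, did not pass in this comparison.

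**Figure D3:**
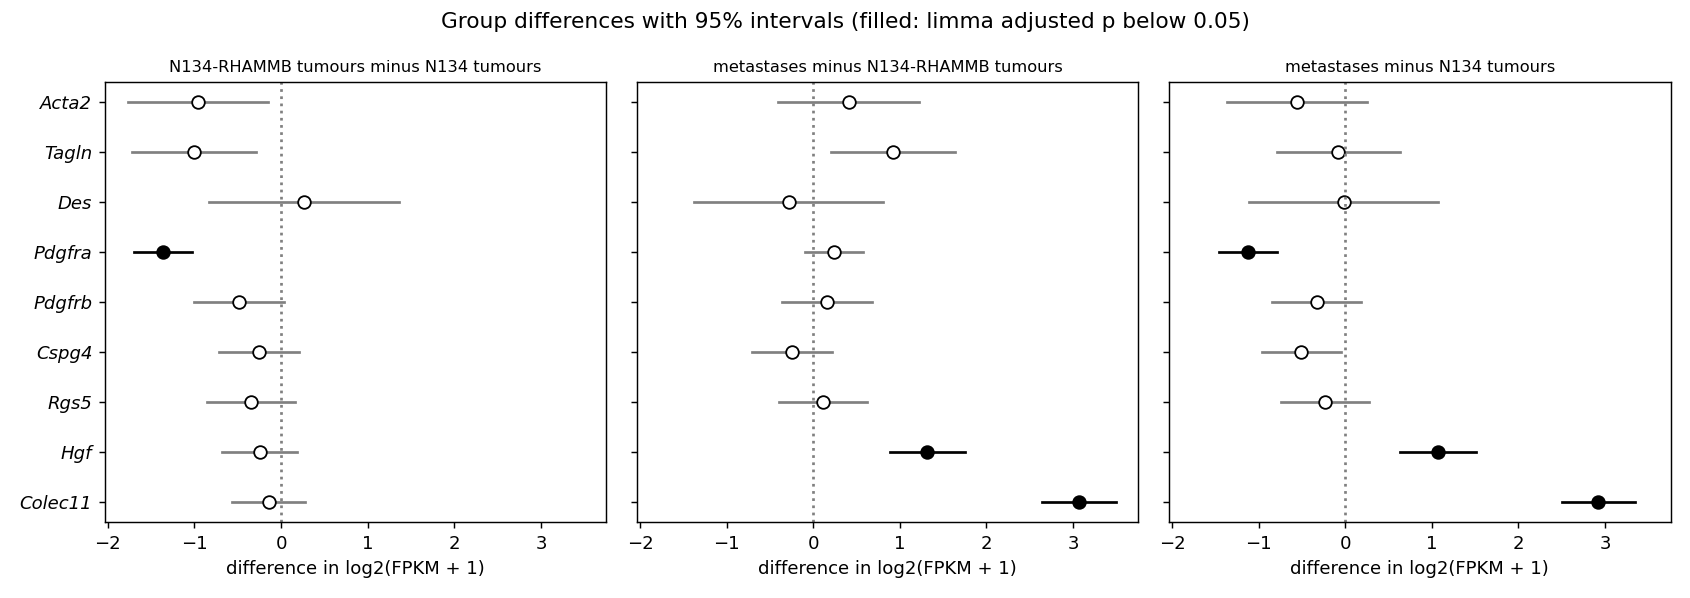
Group differences in log2(FPKM + 1) (x axis) with 95% intervals from limma for the 9 tested genes (y axis), 1 panel per comparison. Filled points passed at an adjusted p below 0.05: Pdgfra in the first panel, Hgf and Colec11 in the second, and all 3 of these genes in the third.

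Acta2 (ENSMUSG00000035783, chromosome 19, 34241090 to 34255336) encodes smooth muscle actin. It stood at 64.0, 112 and 74.3 FPKM across N134 tumours 1, 2 and 3, at 38.0, 30.4 and 60.6 FPKM across N134-RHAMMB tumours 1, 2 and 4, and at 74.2, 30.3 and 73.9 FPKM across metastases 1, 2 and 3. All 3 N134 tumours lay above all 3 N134-RHAMMB tumours, and metastasis 2 was as low as the lowest of these while metastases 1 and 3 fell among the N134 values. The means were 83.6 ± 25.5, 43.0 ± 15.7 and 59.5 ± 25.3 FPKM (SD, n = 3). Between the subcutaneous groups the difference was -0.96 (SE 0.36, limma adjusted p = 0.313), which did not pass. The difference of metastases was 0.41 from N134-RHAMMB tumours (adjusted p = 0.669) and -0.55 from N134 tumours (adjusted p = 0.443).

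Tagln (ENSMUSG00000032085, chromosome 9, 45929628 to 45936058) encodes transgelin, an actin-bundling protein of smooth muscle. Its values were 32.5, 47.6 and 37.1 FPKM across N134 tumours, 16.2, 14.6 and 27.8 FPKM across N134-RHAMMB tumours and 49.0, 21.3 and 46.2 FPKM across metastases. As with Acta2, the subcutaneous groups did not overlap and metastasis 2 stood apart from metastases 1 and 3. N134-RHAMMB tumours averaged 19.5 ± 7.19 FPKM against 39.0 ± 7.76 FPKM across N134 tumours (SD, n = 3), a difference of -1.001 (SE 0.32, 95% interval -1.72 to -0.29, limma adjusted p = 0.237). Metastases, at 38.8 ± 15.2 FPKM, stood 0.92 apart from N134-RHAMMB tumours (SE 0.32, adjusted p = 0.156) and -0.08 from N134 tumours (adjusted p = 0.933). Metastasis 2 decided the call between metastases and N134-RHAMMB tumours: without it the difference was 1.30 (adjusted p = 0.00842). Over all alternatives that adjusted p ran from 0.00140 to 0.433. The Acta2 to Tagln ratio of FPKM was 1.97 to 2.36 in the 6 subcutaneous tumours and 1.42 to 1.60 in the 3 metastases. These ranges did not overlap, and the ratio was not tested.

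Des (ENSMUSG00000026208, chromosome 1, 75360329 to 75368579) encodes desmin, the intermediate filament of muscle that rodent stellate cells and pericytes also make. N134 tumours held 2.12, 2.84 and 3.79 FPKM and metastases 3.48, 1.98 and 3.15 FPKM. N134-RHAMMB tumours held 0.754, 5.64 and 7.56 FPKM. The highest 2 of the 9 values came from N134-RHAMMB tumours 2 and 4, the libraries with skeletal muscle transcripts, and the lowest from N134-RHAMMB tumour 1. Between the subcutaneous groups the difference was 0.27 (SE 0.49, limma adjusted p = 0.879). Without tumours 2 and 4 the difference was -1.14 (adjusted p = 0.638, with 1 N134-RHAMMB library assumed to vary like the others), so the direction of Des rested on those 2 libraries.

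Pdgfra (ENSMUSG00000029231, chromosome 5, 75152292 to 75198215) encodes the alpha receptor for platelet-derived growth factors, found on fibroblasts and on resting stellate cells. N134 tumours held 6.91, 6.26 and 5.73 FPKM, N134-RHAMMB tumours 1.98, 1.62 and 1.91 FPKM and metastases 2.55, 2.61 and 1.93 FPKM. Every N134 value lay more than 3 FPKM above every value of the other 2 groups, which overlapped each other. From 6.30 ± 0.592 FPKM across N134 tumours the level fell to 1.84 ± 0.192 FPKM across N134-RHAMMB tumours (SD, n = 3), 3.43-fold lower and -1.36 on the log2 scale (SE 0.15, limma adjusted p = 0.0139). Metastases, at 2.36 ± 0.376 FPKM, were lower than N134 tumours by -1.12 (SE 0.15, adjusted p = 6.05e-04) with 0.24 between them and N134-RHAMMB tumours (95% interval -0.09 to 0.58, adjusted p = 0.497). The first call was lost without N134 tumour 1, 2 or 3 or without N134-RHAMMB tumour 2 or 4 (adjusted p = 0.0519 to 0.0998), while its log2 difference stayed between -1.30 and -1.42. Over all alternatives this adjusted p ran from 2.33e-04 to 0.379, and that between metastases and N134 tumours from 2.47e-04 to 0.00505. Of 11 tested fibroblast markers 10 were also below 0 between the subcutaneous groups, 1 of which passed, beside 0.117% of all genes called lower. The median of these markers was -0.82, beside 0.01 for all genes, and their part in the fall of Pdgfra was not tested.

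Pdgfrb (ENSMUSG00000024620, chromosome 18, 61045150 to 61085061) encodes the beta receptor through which PDGF-B holds pericytes on vessels. It stood at 7.27, 6.90 and 6.01 FPKM across N134 tumours, 4.03, 3.70 and 6.03 FPKM across N134-RHAMMB tumours and 6.68, 3.38 and 5.87 FPKM across metastases. N134-RHAMMB tumour 4 reached the N134 range and metastasis 2 was the lowest of all. Between the subcutaneous groups the difference was -0.49 (SE 0.23, 95% interval -1.002 to 0.028, limma adjusted p = 0.419). Metastases differed by 0.16 from N134-RHAMMB tumours and by -0.33 from N134 tumours (adjusted p = 0.831 and 0.478). Within each library the ratio of Pdgfrb to Pdgfra was 1.052, 1.103 and 1.049 in N134 tumours, 2.04, 2.29 and 3.16 in N134-RHAMMB tumours and 2.62, 1.29 and 3.04 in metastases. N134 tumours thus had near equal levels of both receptors, and each library of the N134-RHAMMB line had more Pdgfrb than Pdgfra by a wider margin. This ratio was not tested.

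Cspg4 (ENSMUSG00000032911, chromosome 9, 56865104 to 56899870) encodes NG2, a surface proteoglycan of pericytes. It was low everywhere, at 1.30, 1.55 and 1.37 FPKM across N134 tumours, 0.824, 0.624 and 1.74 FPKM across N134-RHAMMB tumours and 0.813, 0.461 and 0.836 FPKM across metastases. All metastases lay under all N134 tumours, and N134-RHAMMB tumour 4 held the highest value of the 9. For metastases against N134 tumours the difference was -0.50 (SE 0.21, limma adjusted p = 0.186), and the other comparisons gave -0.26 and -0.25 (adjusted p = 0.654 and 0.646). With quantile normalization the difference between metastases and N134 tumours was -0.72 and passed (adjusted p = 0.0228, the lowest over its alternatives, which reached 0.395).

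Rgs5 (ENSMUSG00000026678, chromosome 1, 169655501 to 169695813) encodes a regulator of G protein signalling that is abundant in pericytes. It held 51.3, 48.3 and 75.3 FPKM across N134 tumours, 39.5, 36.1 and 62.0 FPKM across N134-RHAMMB tumours and 54.3, 39.7 and 52.5 FPKM across metastases. Each pair of groups overlapped, and the differences were -0.35, 0.11 and -0.24 (limma adjusted p = 0.562 to 0.886). The 95% interval of the difference between N134-RHAMMB and N134 tumours was -0.86 to 0.16, which includes the -0.49 of Pdgfrb. Relative to Pecam1, an endothelial surface protein, Rgs5 stood at 1.91 to 4.36 in the N134 tumours, 1.97 to 3.38 in those of N134-RHAMMB and 2.999 to 3.75 in metastases.

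Hgf (ENSMUSG00000028864, chromosome 5, 16553495 to 16620152) encodes hepatocyte growth factor, a ligand that stellate and other mesenchymal cells secrete for the Met receptor. It stood at 1.06, 1.30 and 0.832 FPKM across N134 tumours, 0.698, 0.829 and 0.673 FPKM across N134-RHAMMB tumours and 4.77, 2.76 and 2.72 FPKM across metastases. No metastasis overlapped a subcutaneous tumour, and metastasis 1 was the highest. Metastases averaged 3.42 ± 1.17 FPKM against 0.733 ± 0.0834 FPKM across N134-RHAMMB tumours and 1.07 ± 0.233 FPKM across N134 tumours (SD, n = 3). Hgf rose by 1.32 over N134-RHAMMB tumours (SE 0.19, limma adjusted p = 0.00132) and by 1.07 over N134 tumours (SE 0.19, adjusted p = 0.00504). Only 2 subcutaneous tumours reached 1 FPKM, so Hgf was tested only because metastases were high, and these p-values are given as a description. Between the subcutaneous groups it differed by -0.25 (adjusted p = 0.645). Without N134-RHAMMB tumours 2 and 4 the rise over the remaining tumour was 1.35 (adjusted p = 0.0630, the highest over its alternatives, which began at 9.88e-05).

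Colec11 (ENSMUSG00000036655, chromosome 12, 28594173 to 28623290) encodes collectin-11, a soluble sugar-binding protein of the lectin complement pathway. It was at 0.293, 0.400 and 0.923 FPKM across N134 tumours, 0.417, 0.366 and 0.335 FPKM across N134-RHAMMB tumours and 10.3, 12.7 and 8.81 FPKM across metastases. Every subcutaneous value was under 1 FPKM and every metastasis above 8 FPKM, with metastasis 2 the highest. Metastases averaged 10.6 ± 1.94 FPKM, 28.5-fold above N134-RHAMMB tumours at 0.373 ± 0.0415 FPKM (SD, n = 3). The rise was 3.07 over N134-RHAMMB tumours (SE 0.19, limma adjusted p = 1.15e-06) and 2.92 over N134 tumours (adjusted p = 1.68e-06). As no subcutaneous tumour reached 1 FPKM, Colec11 was tested only because metastases were high, and these p-values too are a description. Of 12 hepatocyte markers 11 rose over N134-RHAMMB tumours in the same libraries, beside 5.04% of all genes called higher. Of the 12, 5 reached 1 FPKM in no subcutaneous tumour and so were tested only through metastases, and nothing is read from the count. The part of hepatocyte markers in the rise of Hgf and Colec11 was not tested.

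Lrat (ENSMUSG00000028003, chromosome 3, 82892579 to 82903973) encodes lecithin retinol acyltransferase, which esterifies vitamin A for storage. N134 tumours were listed at 0, 0.0309 and 0 FPKM, N134-RHAMMB tumours at 0, 0.0109 and 0 FPKM, and metastases at 1.36, 1.28 and 0.495 FPKM. One fragment in its transcript of 5351 nucleotides was worth about 0.0102 to 0.0126 FPKM, so the nonzero tumour values correspond to about 2.83 and 0.872 fragments and those of the metastases to about 128, 125 and 44.4. All metastases were above all subcutaneous tumours, and metastasis 3 had less than metastases 1 and 2. Lrat lay under the filter of the test. With no filter limma gave a difference of 0.998 between metastases and N134-RHAMMB tumours (SE 0.15, adjusted p = 0.00432) and of 0.99 from N134 tumours (adjusted p = 0.00419).

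**Figure D4:**
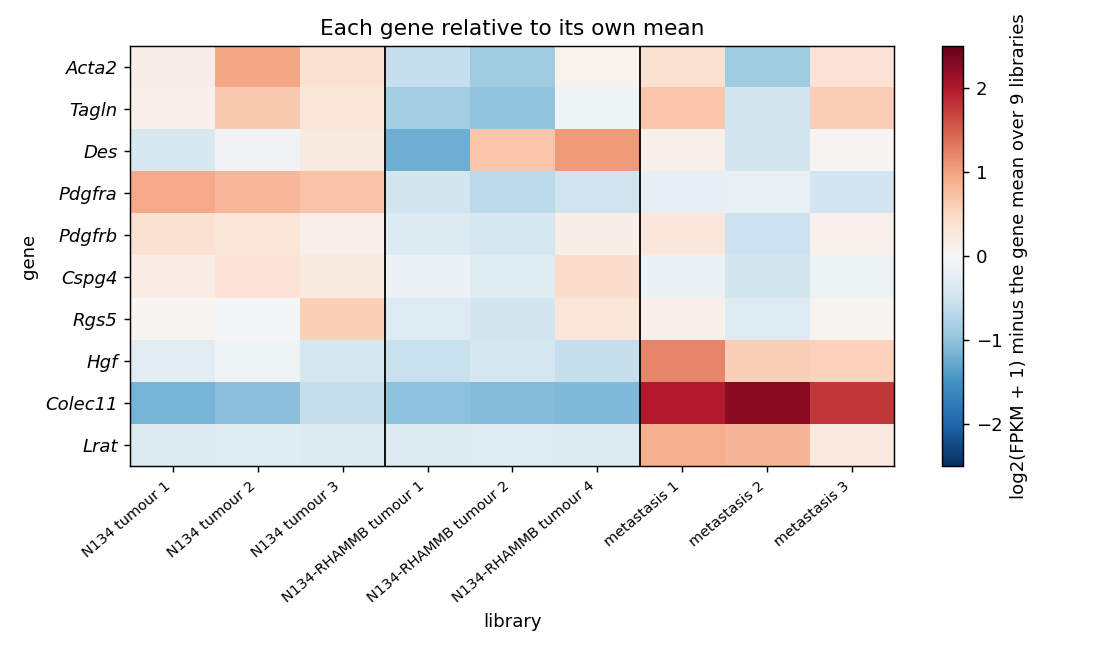
log2(FPKM + 1) of the 10 genes (rows) in the 9 libraries (columns), each gene minus its mean over the libraries, with red above and blue below that mean and black lines between groups. Colec11, Hgf and Lrat are above their means in all 3 metastases, Acta2 and Tagln are below theirs in metastasis 2 but above in metastases 1 and 3, and Des is highest in N134-RHAMMB tumours 2 and 4.

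Some libraries were low or high in their group for several of the 10 genes. Metastasis 1 was the highest of its group for 7 of 10 genes and the lowest for 0, and metastasis 3 the lowest for 4 and the highest for 1. Metastasis 2 was the lowest of its group for 6 of 10 genes (Acta2, Tagln, Pdgfrb, Rgs5, Des and Cspg4) and the highest for 2 (Pdgfra and Colec11). N134-RHAMMB tumour 2 was the lowest of its group for 6 and tumour 4 the highest for 6. Within the metastases those 6 genes were thus lowest in the library where Colec11 was highest. Listed pericyte genes outside the 10 were mixed: Kcnj8, Abcc9, Higd1b, Vtn, Gucy1b3 and Ednra were highest in metastasis 2. Lowest there were Notch3, Mcam, Ndufa4l2, Cox4i2, Heyl, Gucy1a3, Angpt1 and Ebf1, and the rest of that list lay between. The ratio of Colec11 to Pdgfrb was 1.55, 3.74 and 1.501 in metastases 1, 2 and 3 and at most 0.154 in any subcutaneous tumour. In metastasis 2 summed fibroblast markers were 190 FPKM, against 404 and 331 FPKM across metastases 1 and 3. Most of each sum was Col3a1, at 285, 111 and 237 FPKM across metastases 1, 2 and 3. Not every marker was lowest in metastasis 2: Dcn, Dpt and Fbln1 were lowest in metastasis 3. The part of fibroblast markers in these values was not tested.

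Genes of the same pathways were taken from lists of contractile, PDGF, pericyte, stellate, retinoid, HGF, collectin and TGF-beta genes. Between the subcutaneous groups no gene of these 8 lists passed in limma, and 3 of 14, 1 of 5, 2 of 15, 3 of 14, 1 of 10, 3 of 6, 2 of 6 and 6 of 13 had an unadjusted p under 0.05, beside 12.8% of all genes. Of the contractile genes 13 of 14 were below 0, with a median of -0.18: Actg2, the enteric smooth muscle actin, stood at -1.35 (adjusted p = 0.341) and Myl9, a regulatory myosin light chain, at -0.83 (adjusted p = 0.275). All 13 TGF-beta ligands, receptors and targets were below 0, with a median of -0.53. Ctgf, a matricellular target, stood at -1.27 and Thbs1, which activates latent TGF-beta, at -1.27 (adjusted p = 0.252 and 0.180).

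PDGF ligands were measured beside their receptors. Pdgfb, the endothelial ligand of the Pdgfrb receptor, stood at 3.08, 3.41 and 2.26 FPKM across N134 tumours, 2.44, 1.73 and 3.19 FPKM across N134-RHAMMB tumours and 1.84, 1.49 and 1.84 FPKM across metastases. Metastases lay under N134 tumours by -0.52 without passing (limma adjusted p = 0.147). Pdgfa, a ligand of the alpha receptor, held 11.9 to 17.1 FPKM over the 9 libraries. None of the 5 PDGF genes passed in limma in a comparison with metastases. An unadjusted p under 0.05 was found for 0 against N134-RHAMMB tumours and 3 against N134 tumours, beside 16.7% and 21.4% of all genes.

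In metastases against N134-RHAMMB tumours 1 of 14 contractile genes rose, a share near the 5.04% of all genes called higher. It was Myh11, the smooth muscle myosin heavy chain (0.88, limma adjusted p = 0.0447), which held 2.37, 2.13 and 3.49 FPKM across N134-RHAMMB tumours and 7.42, 4.16 and 5.74 FPKM across metastases. Against N134 tumours 0 of 14 passed in limma, and Myh11 stood at 0.54 (adjusted p = 0.194). There 3 of 14 had an unadjusted p under 0.05, beside 21.4% of all genes. Of 15 further pericyte genes 3 rose and 1 fell against N134-RHAMMB tumours, beside 5.04% and 1.52% of all genes. Against N134 tumours 1 rose and 3 fell, beside 5.69% and 4.23%. Vtn, which encodes vitronectin, a plasma protein that hepatocytes also make, rose by 5.99, and Gucy1a3 and Gucy1b3, the subunits of the nitric oxide receptor guanylate cyclase, by 0.95 and 0.68 (adjusted p = 0.0154 and 0.0388). Higd1b, a mitochondrial protein used as a pericyte marker, fell by 1.97, from 6.81, 5.12 and 9.42 FPKM to 1.30, 1.99 and 0.216 FPKM (adjusted p = 0.00364). Higd1b fell against N134 tumours as well (-1.95, adjusted p = 0.00338), where Mcam, the adhesion molecule CD146, fell by 0.93 and Ebf1, a transcription factor, by 1.06.

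Of further stellate cell genes in metastases against N134-RHAMMB tumours, 4 of 14 rose and 1 fell, beside 5.04% and 1.52% of all genes, and against N134 tumours 3 rose and 0 fell, beside 5.69% and 4.23%. Of the 14, 2 reached 1 FPKM in no subcutaneous tumour and so were tested only through metastases. Those 2 were Tcf21 and Gdf2, which encodes BMP9, a ligand that stellate cells release to the sinusoid. Pth1r, of the same list, reached 1 FPKM in N134 tumour 2 alone among subcutaneous tumours (1.16 FPKM), so it too was tested only through metastases. Nothing is read from these counts. Tcf21 had 0 in each of the 6 subcutaneous tumours but 2.42, 1.497 and 1.395 FPKM across metastases. Gdf2 was at 0.0422 FPKM or less in subcutaneous tumours and at 3.003, 2.11 and 2.02 FPKM across metastases (1.72, limma adjusted p = 2.30e-05). Prelp, a matrix proteoglycan, rose by 1.49 and Sod3, extracellular superoxide dismutase, by 0.81 (adjusted p = 0.00203 and 0.0144). Bambi, a pseudoreceptor that dampens TGF-beta signalling, fell by 0.60 (adjusted p = 0.0424). Reln, reelin, stood at 14.97, 31.5 and 9.43 FPKM across metastases and did not pass (0.97, adjusted p = 0.156).

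Retinoid genes rose in 3 of 10 tested and fell in 0 against N134-RHAMMB tumours, beside 5.04% and 1.52% of all genes. Aldh1a1, which makes retinoic acid and is also a hepatocyte enzyme, rose by 5.39, Dhrs3, which returns retinal to retinol, by 1.04 and Dgat2, an acyltransferase of lipid storage, by 0.98 (limma adjusted p = 1.70e-08, 0.00563 and 0.00177). Against N134 tumours 2 of 10 rose, Aldh1a1 and Dgat2, and Dhrs3 stood at 0.49 (adjusted p = 0.157). On the HGF side, 1 of 6 genes rose against N134-RHAMMB tumours, beside 5.04% of all genes: Hpn, hepsin, a liver protease that cleaves pro-HGF (3.31, adjusted p = 1.89e-07). Hpn was at 0.535 FPKM or less in every subcutaneous tumour and was tested only because metastases were high. Met, the HGF receptor, held 1.18, 0.914 and 0.549 FPKM across N134-RHAMMB tumours and 1.58, 2.43 and 1.97 FPKM across metastases (0.67, adjusted p = 0.0527). Against N134 tumours 4 of 6 HGF genes rose and 2 fell, beside 5.69% and 4.23% of all genes. Met rose by 0.76 and Spint2, of the same list, by 0.95 (limma adjusted p = 0.0218 and 0.0186). Hgfac, which activates pro-HGF in plasma, rose by 1.06 (adjusted p = 5.73e-04), while Plau, urokinase, fell by 1.18. Met too was tested only because metastases were high, since fewer than 3 subcutaneous tumours reached 1 FPKM. Nothing is read from the count.

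Lectin pathway partners of collectin-11 rose in 4 of 6 tested against N134-RHAMMB tumours, beside 5.04% of all genes. Masp1 and Masp2, the serine proteases that collectins recruit, rose by 2.55 and 3.14, and the mannose-binding lectins Mbl1 and Mbl2 by 3.94 and 4.004 (limma adjusted p = 5.26e-08 to 1.16e-06). Mbl1, Masp1 and Masp2 reached 1 FPKM in no subcutaneous tumour and Mbl2 in 1, so all 4 were tested only because metastases were high, and nothing is read from their count. Mbl1 was listed at 0 in all 6 of them and at 11.2, 16.8 and 15.6 FPKM across metastases. Colec10, collectin-10, which pairs with collectin-11 in plasma, lay under the filter at 0.912, 2.63 and 1.196 FPKM across metastases and at most 0.0382 FPKM elsewhere. Colec10 and Colec11 were both highest in metastasis 2. Against N134 tumours Masp1, Masp2, Mbl1 and Mbl2 were again called higher, while Colec12 and Fcna, also of this list, were called lower. TGF-beta genes held no call against N134-RHAMMB tumours (3 of 13 at an unadjusted p under 0.05, beside 16.7% of all genes). Genes of this list that fell against N134 tumours included Thbs1 (-2.04) and the receptor Tgfbr2 (-1.03) (adjusted p = 0.00328 and 0.00748).

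**Figure D5:**
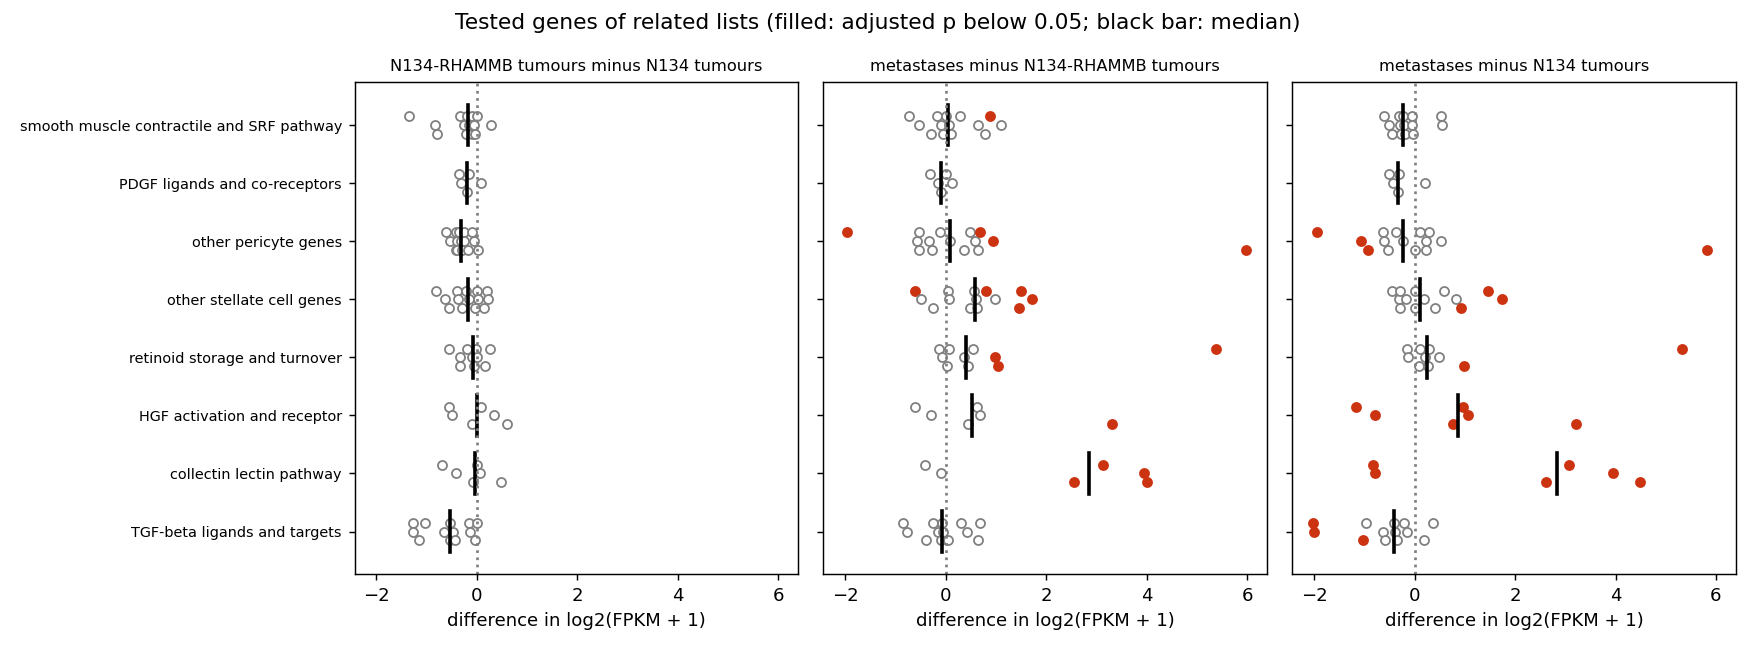
Differences in log2(FPKM + 1) (x axis) of the tested genes in 8 related lists (y axis), 1 panel per comparison, with filled points for an adjusted p below 0.05 and a black bar for the list median. No point is filled in the first panel. The collectin list has 4 filled points to the right in each of the other panels, and 2 to the left in the third.

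Likeness was measured as the root mean square difference between log2(FPKM + 1) values, each gene centred on its own mean over the 9 libraries, for tested genes with a mean of at least 2 FPKM. It was taken for the 6 tested genes whose highest and lowest library differed by at least 1.5 on that scale. Closest to Acta2 were Myl9 (0.20), Tagln (0.25) and the matrix proteoglycan gene Bgn (0.26), and closest to Tagln were Myl9 (0.16), Fam101a (0.24) and fibronectin, Fn1 (0.25). Lum, which encodes the collagen-binding proteoglycan lumican, came closest to Pdgfra (0.26), with 11.4 to 12.0 FPKM across N134 tumours and 4.62 to 6.14 FPKM across N134-RHAMMB tumours. Des was nearest to the small heat shock protein gene Cryab (0.26) and to Tpm2, a tropomyosin (0.37). Both stood highest in N134-RHAMMB tumours 2 and 4. Hgf was nearest to Oat, ornithine aminotransferase (0.14), and Colec11 to Sult1a1, a sulfotransferase (0.16), Bhmt2 (0.17) and the coagulation factor gene F5 (0.19). The measure describes shape over 9 libraries that share 3 groups and carries no test.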

How the data were processed

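RNA of 9 mouse tumour samples in 3 groups of 3 was read. The authors deposited FPKM values for 22053 rows of protein-coding genes with a status word per value, per the file headers. Per the submitters' processing notes, the tools were Cufflinks 2.1.1, STAR 2.5.2 and bcl2fastq 2.19 and the build GRCm38, with no role stated for each. FPKM divides by transcript length and library size, so each value also depends on what other genes take up of its library. The strand setting and annotation release used: not given in the sources used here.

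From the table, 7 rows with a failed estimate and 102 that repeated a symbol at another locus were left out, which left 21944 genes. Genes at 1 FPKM or more in at least 3 libraries (12854) were tested on log2(FPKM + 1) with limma 3.58.1 in R 4.3.3. The model held all 9 libraries (6 residual degrees of freedom), an intensity trend, 2-sided tests and Benjamini-Hochberg adjustment over all genes at 0.05. The fit was tested on simulated data. Depth was estimated from the FPKM of single fragments in genes with 1 transcript of 2000 to 6000 nucleotides. Table starts were raised by 1, since 82.1% of 21810 rows matched by ID to GENCODE M21 then had its start. Figures were drawn in Python 3.11.15 with matplotlib 3.10.9.

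The members and lists were chosen with earlier results of these data known. All 10 members are named, and 2 to 4 genes per list with the largest absolute change in a comparison, with further list genes given as values; some list genes are not reported here. Others named after their values were seen are Bambi, Colec10, Gfap, Ckm, Alb, Hpx, Ttr, Hnf4a, Lhx2, Cygb, Pecam1, Myocd, Nes, Fbln1 and Kcnj8. Abcc9, Notch3, Ndufa4l2, Cox4i2, Ednra, Angpt1 and Pth1r were also named after their values were seen. Alternatives were a pseudocount of 0.1, no filter, a mean of at least 5 FPKM, median-of-ratios scaling, quantile normalization, only the 2 groups compared, no intensity trend, weights per library, a replicate block, single libraries left out in turn, and N134-RHAMMB tumours 2 and 4 left out.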

Additional observations from a re-analysis of the deposited data

How the results depend on the processing

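The number of the 9 tested genes that passed was 1 between the subcutaneous groups, 2 in metastases set against N134-RHAMMB tumours and 3 in metastases set against the parental N134 tumours, in that order below. At a mean of at least 5 FPKM it was 0 in each, since only 4 of them (Acta2, Tagln, Pdgfrb and Rgs5) were then tested. With library weights it was 5 in the first (Acta2, Pdgfra, Pdgfrb, Rgs5 and Tagln, all lower) and 4 in the second (Acta2, Colec11, Hgf and Tagln, all higher). Without N134-RHAMMB tumours 2 and 4 it was 0 and 1. Leaving out single libraries gave 0 to 1, 2 to 3 and 3 in the 3 comparisons.

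Over all genes the calls were 25, 843 and 1276. At a mean of at least 5 FPKM they were 15, 347 and 594. Library weights gave 2629 and 1950 in the first 2 comparisons, leaving out N134-RHAMMB tumours 2 and 4 gave 1 and 504, and fitting only the 2 subcutaneous groups gave 169. Leaving out single libraries gave 0 (without any 1 of the N134 tumours) to 193 (without metastasis 2), 650 to 1137 and 882 to 1571.

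With the replicate block, in which N134-RHAMMB tumour 4 has a number of its own and drops out of the differences, 0 of the 9 genes and 1 gene in all passed between the subcutaneous groups (Pdgfra -1.46, adjusted p = 0.124). The labels do not say that numbers pair samples, and deviations of same-numbered libraries from their group means correlated at -0.0027 to 0.102. The block changed no other call among the 9 genes.

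Directions turned only for genes that did not pass. Des between the subcutaneous groups was -0.88 with library weights, -0.068 with the replicate block and -1.14 without N134-RHAMMB tumours 2 and 4, and ran from -0.18 to 0.97 with single libraries left out. Over N134-RHAMMB tumours, Des in metastases was 0.93, 0.051 and 1.119 under those settings and ran from -0.98 to 0.16. Over N134 tumours it was 0.0071 with median-of-ratios scaling and 0.055 with library weights and ran from -0.17 to 0.16. Tagln there was 0.19 with library weights and ran from -0.29 to 0.30. With single libraries left out, metastases over N134-RHAMMB tumours ran from -0.034 to 0.35 for Rgs5 and from -0.0035 to 0.40 for Pdgfrb, and Colec11 between the subcutaneous groups from -0.26 to 0.028. The cause of these changes was not tested. Depth limits Lrat in the subcutaneous tumours, where it rests on at most about 2.83 fragments.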

Other observations

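Myocd, which encodes the smooth muscle coactivator myocardin, stood at 1.29 FPKM in metastasis 1 and at 0.149 FPKM or less in the other 8 libraries. Ngfr, a neurotrophin receptor of stellate and nerve cells, held 7.77, 1.08 and 6.47 FPKM across metastases 1, 2 and 3, and Nes, nestin, 11.2, 2.43 and 7.36 FPKM. Kcnj8, a pericyte potassium channel, held 0.537, 1.12 and 0.351 FPKM in the same libraries. These genes were chosen after their values were seen, and no test was run on the differences between metastases.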
